A study of Mus musculus with 4 samples.

Results

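To describe the transport genes of immortalized macrophages with and without MK2, the expressed solute carrier (Slc) genes of 2 lines, i*MK2*-KO +*GFP* (empty vector) and i*MK2*-KO +*MK2* (MK2 restored), were compared at rest and after IL-1α. Of 55356 genes in the deposited table, 382 carried a name of the Slc series (Slc, a family number, a letter and a member number). Of these, 4 names ending in -ps and 5 glucose, lactate, cystine and thiamine carriers (*Slc7a11*, *Slc19a2*, *Slc2a1*, *Slc2a3*, *Slc16a3*) were left out, and 191 had a mean under 10 normalized counts over the 4 libraries, 113 of them at 0 in every library. The remaining 182 genes are the expressed solute carrier genes described here. They were chosen by their mean value, so their being expressed is not a result. Just inside the limit were *Slc22a18*, *Slc22a15* and *Slc25a35* with means of 12.5, 14.0 and 15.8, and just outside it *Slc16a12*, *Slc9b1* and *Slc13a3* with 9.25, 8.75 and 8.25.

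RNA came from mouse macrophages that lack MK2 (MAPKAP kinase 2, *Mapkapk2*), were immortalized, and then received a retroviral vector with GFP alone (+*GFP*) or with MK2 as well (+*MK2*), followed by sorting for GFP. Both lines thus share the *MK2* knockout background, the immortalization and the vector. The labels call +*GFP* cells MK2 knockout and +*MK2* cells wt, and each genotype is 1 transduced line. Each line was sequenced untreated and after IL-1α at 5 ng/mL for 1 h, with 1 library for each of the 4 conditions. A difference between the lines therefore cannot be told apart from other differences between 2 separately transduced lines, and no spread between replicates could be measured. For the same reason no test was made. Ratios are log2 of (normalized count + 1) in 1 library over the other, and their 95% intervals (Clopper-Pearson) cover counting error only, taking 1 normalized count as 1 read. The 4 ratios share libraries, since each library enters 2 of them. A change in RNA per cell and a change in the number of cells expressing a gene cannot be told apart in bulk RNA.

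Solute carriers are membrane proteins that move small solutes across the plasma membrane and the membranes of organelles, as uniporters, as cotransporters driven by sodium or protons, or as exchangers. In macrophages they are known for recycling iron and heme from engulfed red cells, for withholding metals from microbes in the phagosome, and for taking up glucose and amino acids on activation. Families are named by sequence, and members of 1 family can carry different solutes or sit in different compartments.

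Library sums were between 24891906 and 25733071 normalized counts, with 17840 to 18152 genes above 0. The 182 genes held 1.38% to 1.39% of each library. *Mapkapk2* stood at 561 and 1585 in +*GFP* cells before and after IL-1α, at 38357 and 38141 in +*MK2* cells, and so was lower in both libraries labelled knockout. Of 10 macrophage markers 9 were expressed, *Lyz2* at 59858 to 64591 and *Csf1r* at 20290 to 27561, while *Marco* had at most 5. The fibroblast and epithelial markers were at 0, the lymphocyte list summed to 0 to 3 and the granulocyte list to 5 to 8. Of 3 dendritic markers *Zbtb46* was expressed, with 23 and 18 in the +*GFP* libraries and 104 and 115 in the +*MK2* libraries. Among the macrophage markers *Mertk* was lower in the +*GFP* libraries, with 421 and 364 against 1093 and 1168, and *Cd14* higher, with 3652 and 8072 against 1962 and 2250. Past 2-fold, the list had 0 higher and 1 lower in untreated cells and 1 of each after IL-1α, with medians of -0.10 and -0.05. The part of such line-wide differences in the results below was not tested.

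Of the 182 genes, 177 reached 50 in some library and 181 were above 0 in every library. By substrate class, 37 were mitochondrial carriers, 26 metal and heme carriers, 24 amino acid and peptide carriers, and 20 carriers of sodium, potassium, chloride, protons, bicarbonate or calcium. A further 14 served nucleotide sugars and other donors of the Golgi apparatus and endoplasmic reticulum, 12 sugars and polyols, and 12 nucleosides, vitamins and choline. Smaller classes were organic ions, bile acids and drugs with 8 genes, neurotransmitters, taurine and creatine with 5, phosphate, sulfate and small anions with 5, lipids with 3 and carboxylates with 3. For 10 genes no substrate class was assigned. Names can mislead here, since *Slc9a3r1*, *Slc4a1ap* and *Slc7a6os* carry Slc symbols but encode a scaffold and other proteins that are not transporters.

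Most of these genes differed little between the lines. In untreated cells, 104 of 182 (57.1%) were within 1.2-fold, against 57.8% of the 12483 genes that pass the same minimum mean, and after IL-1α 102 (56%, against 54.7%). The median log2 ratio of +*GFP* over +*MK2* was -0.0003 in untreated cells and 0.01 after IL-1α, against 0.02 and 0.03 over all 12483 genes. In untreated cells 9 of the 182 (4.95%) were at least 2-fold higher in +*GFP* cells, where 3.51% of the 12483 were, and 9 (4.95%) at least 2-fold lower, where 5.26% were. After IL-1α the counts were again 9 higher (4.95%, background 4.16%) and 9 lower (4.95%, background 5.57%). In both conditions 6 genes were higher (3.3%, background 2.17%) and 7 lower (3.85%, background 3.6%). Against genes with a mean of at least 50 instead, the background was lower. There 4.02% of 174 solute carrier genes were higher and 5.17% lower in untreated cells, against 2.29% and 3.22% of 10585 genes, and after IL-1α again 4.02% and 5.17%, against 3.02% and 3.49%. How the shares of the solute carriers compare with other genes thus depended on the minimum mean, and the values of single genes follow.

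**Figure D1:**
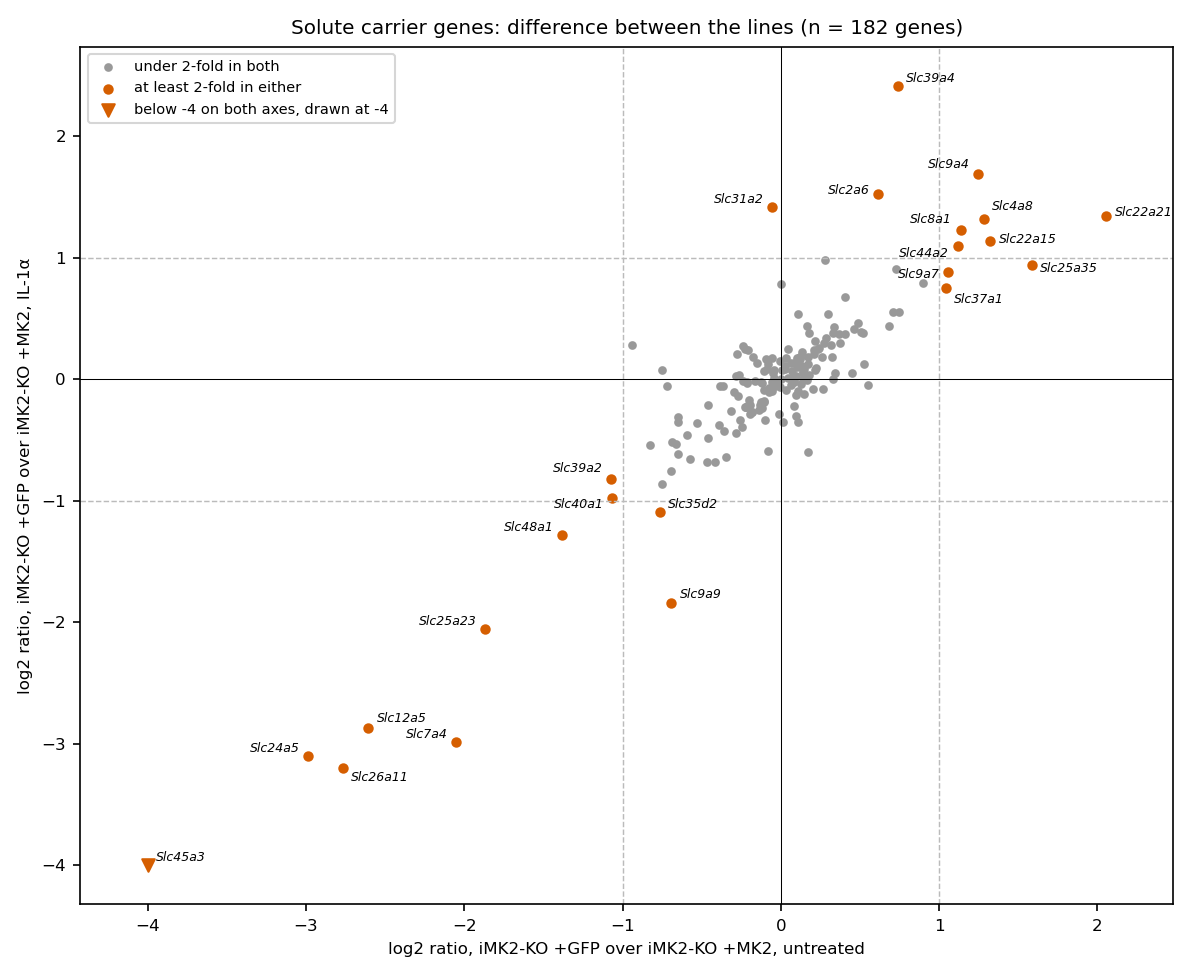
Each point is 1 of 182 solute carrier genes, with the log2 ratio of +*GFP* over +*MK2* cells in untreated cells on the x axis and after IL-1α on the y axis; dashed lines mark 2-fold. Most points lie near 0, *Slc22a21* reaches 2.05 and 1.34, *Slc24a5* -2.98 and -3.10, and *Slc45a3* lies beyond the axes and is drawn at -4.

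The 7 genes at least 2-fold lower in +*GFP* cells in both conditions came from 6 substrate classes. *Slc45a3*, of the family of proton-coupled sugar carriers and known as prostein, was counted at 1 before and 0 after IL-1α in +*GFP* cells, and at 858 and 920 in +*MK2* cells. Pairs of values below are in this order, untreated first and IL-1α second. Against the floor of 3 counts per library this is at least 286-fold lower in untreated cells and at least 306.7-fold lower after IL-1α. The gene was thus close to undetected in 1 line and well detected in the other.

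*Slc24a5*, a potassium-dependent sodium/calcium exchanger known for its part in pigmentation, had 156 and 159 in +*GFP* cells and 1242 and 1370 in +*MK2* cells. Its log2 ratio was -2.98 (95% counting interval -3.24 to -2.75) in untreated cells and -3.10 (-3.35 to -2.87) after IL-1α. *Slc26a11*, a sulfate carrier of lysosomal and plasma membranes, had 57 and 43 against 394 and 404, a log2 ratio of -2.77 (-3.22 to -2.39) and -3.20 (-3.72 to -2.78). For both genes the untreated and treated libraries of a line lay far closer to each other than to those of the other line. The genes were picked by their difference between the lines, so this largely follows from the choice.

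*Slc12a5*, the potassium-chloride cotransporter best known from neurons, had 11 and 15 in +*GFP* cells and 72 and 116 in +*MK2* cells, with wide intervals (-3.78 to -1.79 and -3.83 to -2.17). *Slc7a4*, a relative of the cationic amino acid transporters with no settled substrate, had 49 and 22 against 206 and 181. *Slc25a23*, a calcium-regulated carrier that exchanges ATP-magnesium for phosphate across the inner mitochondrial membrane, had 342 and 282 against 1250 and 1176, a log2 ratio of -1.87 (-2.05 to -1.70) and -2.06 (-2.25 to -1.87). Its relatives *Slc25a24* and *Slc25a25*, which also exchange ATP-magnesium for phosphate, had ratios of -0.39 and -0.28 in untreated cells, so the 3 genes differed in size but not in sign there.

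*Slc48a1*, which passes heme from the phagolysosome to the cytosol, had 2036 and 2220 in +*GFP* cells and 5315 and 5407 in +*MK2* cells. Its log2 ratio was -1.38 (-1.46 to -1.31) in untreated cells and -1.28 (-1.36 to -1.21) after IL-1α. In 1 condition only, *Slc40a1*, *Slc39a2*, *Slc35d2* and *Slc9a9* were past 2-fold lower. *Slc35d2*, a Golgi carrier of nucleotide sugars, had 105 and 81 against 179 and 174, and *Slc9a9*, a sodium/proton exchanger of endosomes, 38 and 25 against 62 and 92.

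**Figure D2:**
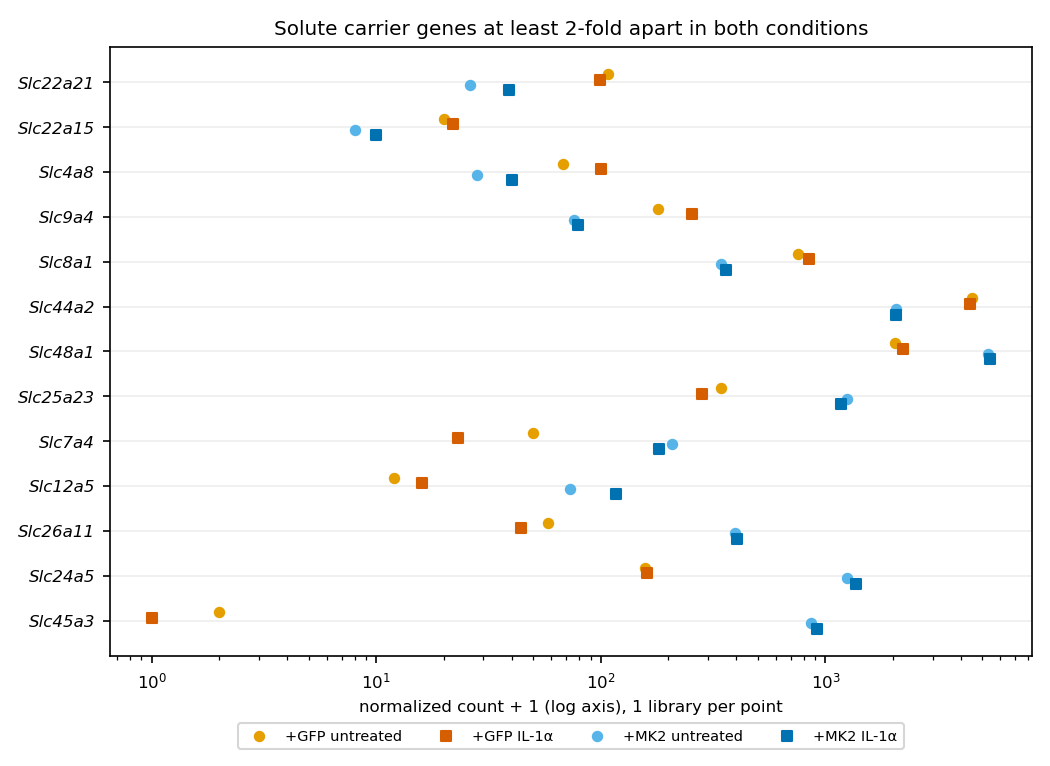
Normalized count + 1 on a log axis for the 13 genes at least 2-fold apart in both conditions, with 1 point per library. For each gene the pair of +*GFP* points and the pair of +*MK2* points do not overlap, as for *Slc8a1* with 750 and 842 against 341 and 358. The genes were picked by this difference, so the separation largely follows from the choice. *Slc45a3* and *Slc22a15* passed the minimum mean of 10 only through the line with the higher values.

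The 6 genes at least 2-fold higher in +*GFP* cells in both conditions included 3 ion carriers. *Slc8a1*, the sodium/calcium exchanger NCX1 of the plasma membrane, had 750 and 842 in +*GFP* cells and 341 and 358 in +*MK2* cells, 2.2-fold and 2.35-fold higher (log2 intervals 0.95 to 1.33 and 1.05 to 1.42). *Slc9a4*, a sodium/proton exchanger, had 179 and 254 against 75 and 78, 2.37-fold and 3.23-fold higher. *Slc4a8*, a sodium-driven chloride/bicarbonate exchanger, had 67 and 99 against 27 and 39, 2.43-fold and 2.5-fold higher. Among the ion carriers the lines thus differed in both directions, with *Slc24a5* and *Slc12a5* higher in +*MK2* cells and these 3 higher in +*GFP* cells.

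*Slc44a2*, a choline transporter-like protein, had 4487 and 4399 in +*GFP* cells against 2069 and 2058 in +*MK2* cells, a log2 ratio of 1.12 (1.04 to 1.19) and 1.10 (1.02 to 1.17). The other 2 were organic ion carriers. *Slc22a21*, a carnitine carrier, had 107 and 98 against 25 and 38, 4.15-fold and 2.54-fold higher. *Slc22a15* had 19 and 21 against 7 and 9, with intervals that reach down to 0.13 and 0.03. *Slc22a21* is closely related to *Slc22a4* and *Slc22a5*, so reads could be split between these genes, and its value is uncertain in that respect. *Slc22a5*, the main carnitine carrier, had 258 and 224 against 205 and 224.

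Past 2-fold in 1 condition only were *Slc31a2*, *Slc39a4*, *Slc2a6*, *Slc25a35*, *Slc9a7* and *Slc37a1*. *Slc9a7*, a sodium/proton exchanger of the trans-Golgi network, had 363 and 388 against 174 and 210, and *Slc37a1*, a sugar-phosphate/phosphate exchanger of the endoplasmic reticulum, 359 and 399 against 174 and 237. Just under 2-fold, *Slc28a2*, a sodium-dependent carrier of purine nucleosides, had 96 and 108 against 51 and 62. *Slc15a4*, a lysosomal carrier of histidine and peptides known for its role in endosomal Toll-like receptor signaling, had 1300 and 1245 against 785 and 662, 1.66-fold and 1.88-fold higher. *Slc6a17*, a vesicular carrier of neutral amino acids, had 910 and 804 against 541 and 547.

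Carriers of nucleosides, vitamins and choline had a median log2 ratio of 0.25 in untreated cells, with 10 of 12 above 0, and 0.33 after IL-1α, with 9 of 12 above 0. The 4 other scalings of the libraries moved the median of all genes by at most -0.06 in untreated cells and -0.10 after IL-1α. Such shifts were too small to change the sign of either median. Their summed values were 23434 and 24304 in +*GFP* cells and 18474 and 18557 in +*MK2* cells. Beside *Slc44a2*, *Slc23a2*, which carries vitamin C, had 5372 and 6236 against 4060 and 3889. *Slc19a1*, the reduced folate carrier, had 2714 and 2846 against 2230 and 2244, and *Slc52a2*, a riboflavin carrier, 1243 and 1324 against 963 and 1020. These 4 genes were above the +*MK2* values in both conditions. *Slc5a6*, the sodium-dependent multivitamin carrier, and *Slc17a9*, a nucleotide carrier, were below them, at -0.19 and -0.31 in untreated cells and -0.21 and -0.26 after IL-1α.

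Amino acid and peptide carriers had a median of -0.09 in untreated cells and -0.06 after IL-1α, with 16 of 24 below 0 in each, and 1 gene past 2-fold (*Slc7a4*). *Slc38a2*, the sodium-coupled neutral amino acid carrier that cells raise on amino acid shortage, had 12064 and 12025 in +*GFP* cells and 13838 and 14634 in +*MK2* cells. *Slc1a5*, a glutamine carrier, had 8911 and 9139 against 9221 and 8801. *Slc7a5* and its partner chain *Slc3a2*, which together import large neutral amino acids, had ratios of -0.12 and -0.11 in untreated cells. *Slc1a4* and *Slc6a9*, carriers of small neutral amino acids and of glycine, were further apart, with 420 and 389 against 660 and 597, and with 417 and 392 against 654 and 486. Of 13 expressed genes of the amino acid starvation response, *Chac1* (33 and 49 against 253 and 251) and *Trib3* (187 and 240 against 683 and 633) were past 2-fold lower in both conditions. None was past 2-fold higher, and over the 12483 genes 3.6% were lower and 2.17% higher in both conditions. *Asns* had a ratio of -0.68 in untreated cells. *Ddit4* went the other way, with 1059 and 1245 against 770 and 786, and *Shmt2* and *Eif2ak4* were near even, at -0.02 and -0.01 in untreated cells. The list's median was -0.39 in untreated cells and -0.29 after IL-1α, against 0.02 and 0.03 over the 12483 genes. The list was chosen with earlier results of these data known.

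Mitochondrial carriers, the largest class, were centred near 0, with a median of -0.0047 in untreated cells and 0.0068 after IL-1α, the latter negative under each of the 4 other scalings. *Slc25a5*, the ADP/ATP carrier, had 25723 and 25915 against 21762 and 21627, and *Slc25a3*, the phosphate carrier, 18730 and 18942 against 17442 and 17638. *Slc25a5* has processed copies in the genome, so its value is uncertain to the extent that reads were shared with them. Apart from *Slc25a23*, 1 gene was past 2-fold, *Slc25a35* with 23 and 22 against 7 and 11, in untreated cells. None of 10 other genes for pyruvate and calcium entry and for the outer membrane pores was past 2-fold.

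Of 26 metal and heme carriers, 3 were past 2-fold lower in +*GFP* cells when untreated and none higher, where 5.26% and 3.51% of the 12483 were, and the class median was -0.06, with 14 below 0. After IL-1α 1 was past 2-fold lower (*Slc48a1*) and 2 were higher (*Slc31a2* and *Slc39a4*), and the median was 0.11, with 18 above 0. Beside *Slc48a1*, *Slc40a1* (ferroportin, the iron exporter) had 314 and 305 against 659 and 600, a log2 ratio of -1.07 (-1.27 to -0.87) and -0.97 (-1.18 to -0.77). *Slc39a2*, a zinc importer, had 58 and 71 against 123 and 126. *Slc11a1*, which pumps iron and manganese out of the phagosome, had 2247 and 2361 against 3982 and 3442, a ratio of -0.83 (-0.90 to -0.75) and -0.54 (-0.62 to -0.47). The 4 genes were thus lower in both +*GFP* libraries than in both +*MK2* libraries.

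Of 12 expressed metal-handling genes outside the Slc series, 3 were past 2-fold lower in both conditions and none higher. Over the 12483 genes 3.6% were lower and 2.17% higher. The list was chosen with earlier results of these data known, so its share cannot be read as an enrichment. *Hmox1*, the heme-degrading enzyme, had 2726 and 2641 in +*GFP* cells against 7214 and 7289 in +*MK2* cells. *Tfrc*, the transferrin receptor, had 11206 and 12446 against 25654 and 26193. *Mt2*, a metallothionein, had 127 and 121 against 1030 and 1018, while *Mt1* had 6129 and 6321 against 8060 and 7680. The median of the 12 was -0.23 in untreated cells and -0.22 after IL-1α. The ferritin chains differed less, *Fth1* with a ratio of -0.21 and *Ftl1* with -0.23 in untreated cells. Not every gene of the list was lower in +*GFP* cells. *Atox1* had ratios of 0.26 and 0.13, *Atp7a* 0.13 and 0.33, and *Mtf1* -0.22 and 0.23, untreated first. Other carriers of the class were closer to even, such as *Slc39a6* (6272 and 6095 against 5699 and 5894) and *Slc39a7*, a zinc carrier of the secretory pathway (4595 and 4485 against 3807 and 3653).

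**Figure D3:**
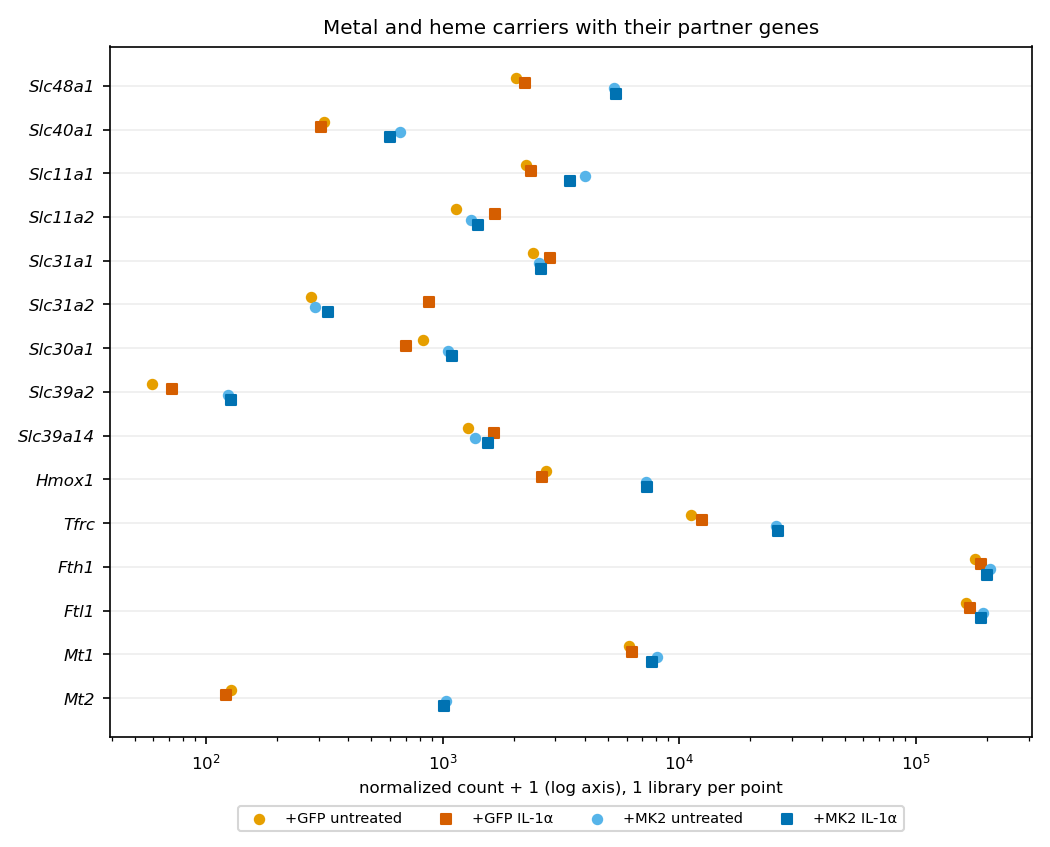
Normalized count + 1 on a log axis for 9 metal and heme carriers and 6 partner genes, chosen after their values were seen, with 1 point per library. *Slc48a1*, *Slc40a1*, *Slc11a1*, *Slc39a2*, *Hmox1*, *Tfrc* and *Mt2* lie lower in both +*GFP* libraries, and *Slc31a2* stands out in IL-1α-treated +*GFP* cells at 874. Metal-handling genes that were higher in +*GFP* cells, such as *Atox1*, are not drawn.

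After 1 h of IL-1α, most solute carrier genes were close to their untreated values. In +*GFP* cells 145 of 182 (79.7%, background 77.0%) were within 1.2-fold, and in +*MK2* cells 153 (84.1%, background 83.9%). The median absolute log2 ratio was 0.11 in +*GFP* cells and 0.08 in +*MK2* cells, the same as over the 12483 genes to that precision. In +*GFP* cells 7 genes (3.85%) were at least 1.5-fold higher, where 4.7% of the 12483 were, and 3 (1.65%) at least 1.5-fold lower, where 4.29% were. In +*MK2* cells 5 (2.75%, background 2.72%) were higher and 4 (2.2%, background 2.92%) lower. The 3 genes lower in +*GFP* cells included *Slc45a3*, with 1 and 0 counts, and *Slc9a9*, at 1.5-fold itself. With a minimum mean of 50 the shares higher and lower in +*GFP* cells were 2.87% and 1.72%, against 2.89% and 1.56% of the background. In +*MK2* cells they were 1.72% and 0.575%, against 0.765% and 0.812%, so this comparison too depended on the minimum mean.

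Of the 182 genes, *Slc31a2* had the highest response in +*GFP* cells. It encodes a relative of the copper importer that is found on endosomes and lysosomes. It stood at 277 before and 874 after IL-1α in +*GFP* cells, and 288 and 327 in +*MK2* cells. The untreated values of the lines were close, and the IL-1α-treated +*GFP* library stood apart from the other 3. The log2 response was 1.65 (1.46 to 1.86), or 3.15-fold, in +*GFP* cells and 0.18 (-0.05 to 0.42) in +*MK2* cells. *Slc31a1*, the copper importer of the plasma membrane, had 2416 and 2849 against 2559 and 2605.

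*Slc2a6*, a facilitative hexose carrier of lysosomal membranes, had 2208 and 4363 in +*GFP* cells and 1441 and 1511 in +*MK2* cells. Its response was 0.98 (0.91 to 1.06), or 1.98-fold, against 0.07 (-0.04 to 0.17). It was also higher in untreated +*GFP* cells, by 0.62 (0.52 to 0.71). *Slc25a25*, the relative of *Slc25a23* that exchanges ATP-magnesium for phosphate, had 732 and 1205 in +*GFP* cells and 888 and 1045 in +*MK2* cells, a response of 0.72 (0.59 to 0.85) against 0.23 (0.10 to 0.37). Its IL-1α-treated value was thus above its untreated value in both lines. *Slc15a3*, like *Slc15a4* a lysosomal carrier of histidine and peptides, had 2435 and 3764 against 2010 and 1905, a response of 0.63 (0.55 to 0.70) against -0.08 (-0.17 to 0.01).

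The promoters of *Slc31a2*, *Slc2a6* and *Slc25a25* from RefSeq (GRCm38.p6) are shown as the 160 bases before the annotated start, 5′ to 3′ on the gene's strand, because they are the stretch in which a shared motif would be looked for. They were chosen after the responses were seen. For *Slc25a25*, which has 3 annotated starts, the one with a motif match is shown, at chr2:32424067-32424226 on the minus strand. *Slc31a2* is at chr4:62286269-62286428 on the plus strand and *Slc2a6* at chr2:27027999-27028158 on the minus strand. Capitals mark the cAMP response element.
Slc31a2: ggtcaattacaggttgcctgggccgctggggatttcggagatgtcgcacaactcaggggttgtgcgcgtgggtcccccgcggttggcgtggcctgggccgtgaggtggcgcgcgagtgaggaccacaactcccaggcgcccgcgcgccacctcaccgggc
Slc2a6: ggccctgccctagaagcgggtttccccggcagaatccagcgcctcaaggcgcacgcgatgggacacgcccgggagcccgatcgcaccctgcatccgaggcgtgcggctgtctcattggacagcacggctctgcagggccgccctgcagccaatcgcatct
Slc25a25: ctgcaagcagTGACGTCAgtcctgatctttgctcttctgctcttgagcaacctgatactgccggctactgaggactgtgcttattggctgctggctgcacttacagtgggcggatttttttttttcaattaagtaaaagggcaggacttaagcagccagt

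In windows from 250 bases before to 50 after each start, on both strands, 3 motifs were searched. The NF-κB type motif GGGNNTTTCC was in 1.63% of 32851 promoters and in 3 of 193 promoters (1.55%) of the 140 solute carrier genes that matched, namely those of *Slc37a4*, *Slc6a12* and *Slc6a13*. The AP-1 motif TGACTCA was in 5.2% of all promoters and in 7 of the 193 (3.63%). The cAMP response element TGACGTCA, which does not contain the AP-1 motif, was in 1.79% and in 3 (1.55%), those of *Slc25a25*, *Slc25a36* and *Slc38a6*. In *Slc25a25* it lay at -150 from 1 of the 3 starts. No match was found in the windows of *Slc31a2* and *Slc2a6* shown above, which says only that these letters are not there.

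Smaller responses in +*GFP* cells included 2 further carriers. *Slc11a2*, which moves iron out of endosomes, had 1144 and 1664 against 1324 and 1407, a response of 0.54 (0.43 to 0.65) against 0.09 (-0.02 to 0.20). *Slc9a4* had a response of 0.50 (0.22 to 0.79) in +*GFP* cells and 0.06 (-0.42 to 0.53) in +*MK2* cells. *Slc10a6*, a sodium-dependent carrier of steroid sulfates, was past 1.5-fold in both lines, with 49 and 82 in +*GFP* cells and 45 and 72 in +*MK2* cells, responses of 0.73 and 0.67 with intervals that left out 0. *Slc4a8* came near that in both lines, at 0.56 (0.10 to 1.03) and 0.51 (-0.21 to 1.29), but in +*MK2* cells its interval included 0. The remaining genes past 1.5-fold higher in +*GFP* cells had low values, *Slc39a4*, a zinc importer, with 19 and 31 and *Slc22a18* with 8 and 13, and their intervals included 0.

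**Figure D4:**
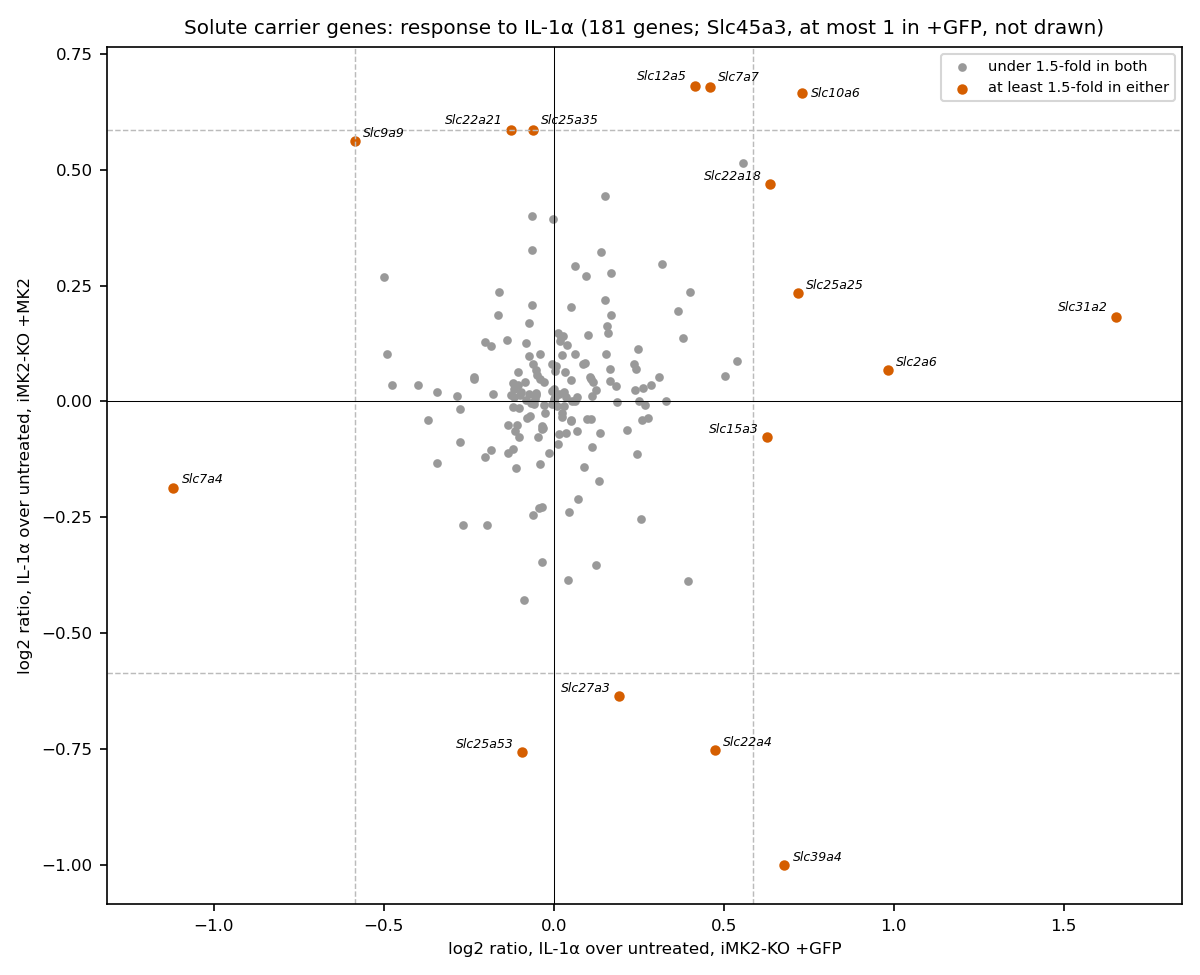
Each point is a solute carrier gene, with the log2 ratio of IL-1α over untreated in +*GFP* cells on the x axis and in +*MK2* cells on the y axis; dashed lines mark 1.5-fold, and *Slc45a3* is left out. *Slc31a2* (1.65 and 0.18), *Slc2a6* (0.98 and 0.07) and *Slc15a3* (0.63 and -0.08) lie to the right near the x axis, and *Slc10a6* (0.73 and 0.67) lies high on both axes.

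Lower after IL-1α by at least 1.5-fold in +*GFP* cells were *Slc7a4*, with 49 and 22 (-1.12, interval -1.95 to -0.40), and *Slc9a9*, with 38 and 25, whose interval included 0. The third was *Slc45a3*, with 1 and 0, both under the floor, for which no fold is given. Below that size but better counted, *Slc35a5*, a Golgi carrier related to those of nucleotide sugars, had 616 and 435 in +*GFP* cells and 548 and 660 in +*MK2* cells, responses of -0.50 (-0.68 to -0.32) and 0.27 (0.10 to 0.43). *Slc36a1*, a lysosomal proton-coupled amino acid carrier, had 966 and 694 against 1022 and 1047, and *Slc29a3*, a lysosomal nucleoside carrier, 2333 and 1839 against 2316 and 2350. For these 2 genes the treated +*GFP* library was the lowest of the 4. *Slc25a42*, which carries coenzyme A into mitochondria, had 98 and 77 against 136 and 124.

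Among carriers of organic solutes, *Slc5a3*, the sodium/myo-inositol cotransporter, had 2402 and 1710 in +*GFP* cells and 1642 and 1764 in +*MK2* cells, responses of -0.49 (-0.58 to -0.40) and 0.10 (0.01 to 0.20). *Slc6a6*, the taurine carrier, had 19015 and 17665 against 17404 and 18187. *Slc6a12*, the betaine and GABA carrier, had 5451 and 5186 against 3401 and 3825. Each of the 3 was lower after IL-1α in +*GFP* cells and higher in +*MK2* cells, *Slc6a6* by -0.11 and 0.06 and *Slc6a12* by -0.07 and 0.17. These 3 were set side by side after their values were seen, and *Slc6a13*, the class neighbour of *Slc6a12*, had responses of 0.01 and 0.15. Responses of opposite sign, each beyond its counting interval, occurred in 7 of the 182 genes (3.85%) and in 3.52% of the 12483.

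In +*MK2* cells the 5 genes past 1.5-fold higher after IL-1α were *Slc10a6*, *Slc12a5* with 72 and 116, *Slc22a21* with 25 and 38, *Slc7a7* with 14 and 23, and *Slc25a35* with 7 and 11. Of these, the intervals of *Slc10a6* and *Slc12a5* (0.25 to 1.13) left out 0. *Slc22a21* and *Slc25a35* lay at 1.5-fold itself, and the count was 3 when the libraries were rescaled by the trimmed mean of M values, the median of ratios or their totals. Lower were *Slc25a53*, a mitochondrial carrier of unsettled substrate, with 129 and 76 (-0.76, interval -1.19 to -0.34), *Slc22a4*, the ergothioneine carrier, with 68 and 40, *Slc27a3*, of the fatty acid transport proteins, with 58 and 37, and *Slc39a4* with 11 and 5. The genes at this fold in +*MK2* cells had values of at most 129 in either library, so their counting intervals were wide. Those of *Slc22a4* (-1.37 to -0.18) and *Slc27a3* (-1.28 to -0.03) left out 0, and that of *Slc39a4* included it. Better counted and smaller responses went both ways. *Slc12a7*, a potassium-chloride cotransporter, had 1928 and 1517 (-0.35), and *Slc30a7*, which loads zinc into the Golgi apparatus, 1703 and 1303 (-0.39). Genes that were higher included *Slc37a1*, with 174 and 237 (0.44, interval 0.16 to 0.74), and *Slc38a6*, with 1144 and 1402 (0.29, interval 0.18 to 0.41).

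**Figure D5:**
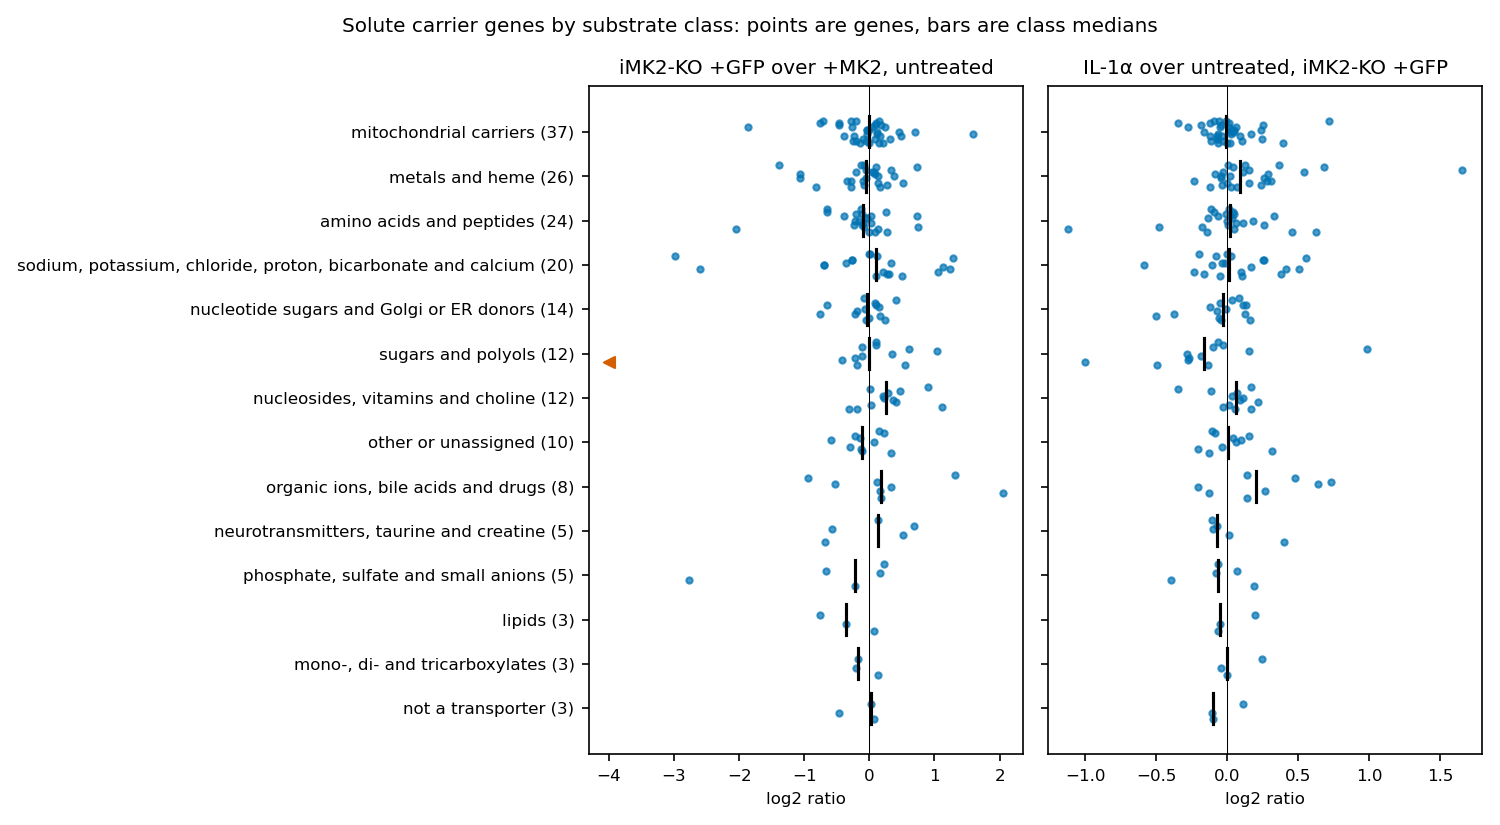
Log2 ratios of the 182 genes by substrate class, +*GFP* over +*MK2* in untreated cells (left) and IL-1α over untreated in +*GFP* cells (right); points are genes, bars class medians, and the number of genes is in brackets. On the left, medians run from -0.36 (3 lipid carriers) to 0.25 (nucleosides, vitamins and choline), and on the right from -0.16 (sugars and polyols) to 0.20 (organic ions, bile acids and drugs), while *Slc45a3* is drawn as a triangle at -4 on the left and stands at -1.0 on the right with 1 and 0 counts.

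By class, the median response in +*GFP* cells ran from -0.16 to 0.20. The 8 carriers of organic ions, bile acids and drugs had a median of 0.20 in +*GFP* cells and 0.22 in +*MK2* cells, 6 and 5 of them above 0, with low counts in several. Sugar and polyol carriers had a median of -0.16, where that of the 12483 genes was 0.01. Of the 12 carriers 10 were below 0, and *Slc2a6* was 1 of the 2 above it. Of the 10, 1 was *Slc45a3* with 1 and 0 counts, and only the intervals of *Slc37a2*, *Slc37a4* and *Slc5a3* left out 0. Others of the class were *Slc37a2*, a sugar-phosphate exchanger, with 2458 and 2029 in +*GFP* cells and 3287 and 3251 in +*MK2* cells, and *Slc2a8*, a hexose carrier of intracellular membranes, with 70 and 58. In +*MK2* cells the class median was 0.03. Metal and heme carriers had a median of 0.09 in +*GFP* cells and 0.03 in +*MK2* cells, with 18 of 26 above 0 in each. The other scalings moved the median response of all genes by at most -0.04 in +*GFP* cells and -0.01 in +*MK2* cells. By size or direction, such shifts could not change the sign of the sugar and polyol or metal and heme medians. Mitochondrial carriers had a median of -0.01 in +*GFP* cells and 0.02 in +*MK2* cells, and amino acid and peptide carriers 0.02 and -0.02, the former of these 2 negative under 2 of the 4 other scalings.

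*Nupr1* was the 1 gene of the amino acid starvation response past 1.5-fold after IL-1α in +*GFP* cells, with 129 and 295 there and 250 and 271 in +*MK2* cells. Of the carrier chaperones and sodium pump subunits, 5 were expressed and *Emb*, a chaperone of monocarboxylate carriers, was the 1 past 2-fold between the lines, with 27 and 24 in +*GFP* cells and 914 and 871 in +*MK2* cells. *Bsg*, the other chaperone of these carriers, had 6276 and 6430 against 5536 and 5707. *Slc16a1*, the monocarboxylate carrier that relies on them, had 7759 and 7761 against 7071 and 7206. *Emb* was thus far lower in +*GFP* cells, while *Bsg* and *Slc16a1* were slightly higher there and within 1.2-fold. Of 17 expressed transporters named outside the Slc series, none was past 2-fold between the lines, and *Mfsd8* was the 1 past 1.5-fold after IL-1α, with 141 and 81 in +*MK2* cells.

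Other well-counted members stayed close to even in the 4 libraries. *Slc27a1*, a fatty acid transport protein, had 6146 and 5864 against 5830 and 5817, and *Slc20a1*, a sodium-phosphate cotransporter, 4693 and 5337 against 5442 and 5438. *Slc35a4*, a Golgi protein of the nucleotide sugar family, had 5477 and 5048 against 4920 and 4956, and *Slc35c2*, of the same family, 2826 and 2737 against 2940 and 2786. *Slc4a2*, a chloride/bicarbonate exchanger, was further apart, with 1812 and 1681 against 2937 and 2834, and so was *Slc6a8*, the creatine carrier, with 2957 and 2755 against 4393 and 4353.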

How the data were processed

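The 4 libraries, 1 per condition, were prepared by poly(A) selection with a stranded kit and read from both ends per the labels, while the methods of the study describe single reads after ribosomal RNA depletion. Which applies could not be settled, nor how reads were shared between related genes. The authors deposited 1 table whose values are normalized counts rounded to whole numbers (a score here, since they are not raw counts). The submitters' processing notes name DESeq2 and GRCm38, and the column names are those of salmon output. The positions in the table matched the GRCm38 annotation for 2.87% of shared gene identifiers, so none is printed.

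Ratios are on the log2 scale after adding 1 to each value, and carry exact (Clopper-Pearson) 95% intervals that cover counting error only. They take 1 normalized count as 1 read, and the true depth is unknown. Genes with a mean of at least 10 were compared with the 182 members. Past the fold means at least 2-fold between lines and at least 1.5-fold for IL-1α. A ratio against a library at 3 counts or fewer is given as a bound against 3 counts. No test was made, since no condition has a second library.

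Named genes are the 10 highest and 10 lowest ratios per comparison among members reaching 50 in some library, the 2 highest means of each class, and the members nearest the minimum mean. Of the others, *Slc7a7*, *Slc39a4*, *Slc11a1*, *Slc31a1*, *Slc16a10*, *Slc25a45*, *Slc9b2* and the further class members given as context were named after their values were seen. Substrate classes follow the family, with single genes reassigned, and *Slc7a6os* was moved to the non-transporters after the table was read. The members, classes and lists were chosen with earlier results of these data known. Alternatives were 4 scalings (trimmed mean of M values (TMM), median of ratios, library totals, *Gapdh*), pseudocounts of 0.5 and 5, no minimum mean or 50, 0.8 or 1.25 reads per count, and leaving out the non-transporters. Tools were Python 3.11.15, numpy 2.4.6, pandas 2.3.3, scipy 1.17.1 and matplotlib 3.10.9, and the calculation was tested on simulated data. Motifs were searched as exact letters. The values of 1 gene covered by the naming rule are not reported here.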

Additional observations from a re-analysis of the deposited data

Results flagged for a closer look

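In 7 solute carrier genes the IL-1α responses of the lines had opposite signs, each beyond its counting interval. This is 3.85% of the 182, where 3.52% of the 12483 genes met the same rule. The signs held under the 4 other scalings, whose shifts of all genes were smaller than each of these responses. The difference between the responses was not tested, since each condition has 1 library. As response in +*GFP* minus response in +*MK2* on the log2 scale, *Slc35a5* stood at -0.77, *Slc5a3* at -0.59, *Slc9b2* at -0.35, *Slc25a45* at -0.30, *Slc6a12* at -0.24 and *Slc6a6* at -0.17. In these 6 the treated library was lower in +*GFP* cells and higher in +*MK2* cells. *Slc16a10*, a carrier of aromatic amino acids, stood at 0.51, with 2270 and 2712 in +*GFP* cells and 2677 and 2244 in +*MK2* cells. *Slc9b2*, a sodium/proton exchanger, had 904 and 807 against 751 and 855. *Slc25a45*, a mitochondrial carrier, had 1305 and 1149 against 1234 and 1340.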

How the results depend on the processing

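Of 108 recomputed counts and medians of the 182 genes, 88 stayed within 1.5 times the reported count or within the interval of the reported median. Of 1800 recomputed single-gene ratios, 1748 stayed within their counting interval, 52 moved beyond it and 46 changed sign, all in ratios of at most 0.08 in size. Of 336 recomputed class medians, 9 moved beyond their interval and 28 changed sign, none over 0.03 in size. No ratio past its fold changed sign, and the shifts under the scalings, at most -0.10 in the median of all genes, were too small for that. The count past 1.5-fold higher after IL-1α in +*MK2* cells became 3 under TMM, median of ratios, library totals and a minimum mean of 50, and 2 with a pseudocount of 5. The count lower in +*GFP* cells became 1 with a pseudocount of 5, and that lower in +*MK2* cells 1 with a minimum mean of 50. With no minimum mean genes near 0 enter, giving 260 solute carrier genes and 21626 in the background. Between untreated lines 28 were higher and 28 lower (10.8% each, background 12.2% and 14.4%). After IL-1α 29 were higher and 37 lower (11.2% and 14.2%, background 12.7% and 13.9%). For the response of +*GFP* cells the counts were 28 and 25 (10.8% and 9.62%, background 15% and 14.5%). For that of +*MK2* cells they were 34 and 25 (13.1% and 9.62%, background 13.2% and 14.1%). The median line difference after IL-1α was -0.0285 with library totals and -0.0941 with *Gapdh*, which moved the median of all genes by -0.10 there, and the median responses were -0.0321 with totals and -0.0340 with *Gapdh* in +*GFP* cells and 0.0078 with totals in +*MK2* cells. No paired analysis was possible because each condition has 1 library. At low values counting error limits a ratio, as for *Slc22a15*, whose interval between untreated lines ran from 0.13 to 2.93.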
